A study of Mus musculus with 36 samples.

Results

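Transcripts of the red blood cell lineage were measured in libraries made from splenic CD4 T cells of mice. The members were 9 genes given by symbol, namely Hbb-bs, Hbb-bt, Hba-a1, Hba-a2, Alas2, Ahsp, Car1, Slc4a1 and Klf1. Of these, 8 had a row among the 56748 genes of the deposited count table, and Ahsp was not analysed here. The rule takes genes by symbol alone, although the list was drawn up with earlier results of these data known. The series held 36 RNA-seq libraries in 12 groups of 3, and 35 were in use, because the study set aside replicate 3 of the HP1g KO Tconv with Treg for the quality of that library.

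The design crossed genotype, condition and mouse line. HP1a and HP1g are heterochromatin proteins encoded by Cbx5 and Cbx3, which bind methylated histone H3 lysine 9. HP1a KO mice were Hp1a-/- after excision of a floxed allele by CMV-cre in the germ line, so that every cell of these donors carried the deletion, and HP1a WT mice were their Hp1a+/+ littermates. HP1g KO mice were homozygous for a floxed Hp1g allele and carried Cd4-cre, which is active in T cells, whereas HP1g WT littermates were floxed without the transgene. All donors were young male mice on a mixed 129/Sv and C57BL/6 background. Naive cells were enriched from spleen by depleting other cells with magnetic beads, with no flow sort. Tconv were naive cells of the same genotypes that had been injected with bone marrow of C57BL/6 J and B6D2F1 mice into lethally irradiated hosts, either CD45.1+ B6 or C57BL/6 J, and the marrow was wild type in every group. They were recovered from the host spleen weeks later by CD4 bead selection and a flow sort for CD4, CD45.2, H-2Kb and TCR Vbeta6 without CD45.1, Thy1.1 or H-2Kd. Tconv with Treg came from hosts given expanded wild-type regulatory T cells as well, and were isolated likewise. The sort panel held no erythroid marker, and the labels did not say whether replicates came from separate mice, so p-values measure the spread between these libraries, which may be technical.

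Erythroid cells carry oxygen on hemoglobin, a tetramer of alpha and beta globin chains around heme. Alas2 encodes the erythroid enzyme that starts heme synthesis, Slc4a1 the anion exchanger band 3 of the red cell membrane, Car1 a carbonic anhydrase of the red cell cytosol, and Klf1 a transcription factor that binds CACCC boxes and drives beta globin. GATA1 is the other master regulator of this lineage, and the mouse spleen is a blood-forming organ, most of all when marrow is regenerating. Circulating reticulocytes keep globin messenger RNA after they have lost the nucleus.

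Total estimated counts in the 35 libraries ranged from 37029519 to 63042245, and 3 counts, the most that a count of 0 allows, equalled 0.0446 to 0.0816 CPM. This floor covers counting error only. CPM are the counts of a gene divided by the library total on the usual counts-per-megaread scale, with the totals adjusted by trimmed mean (TMM) factors over the 35 libraries. The summed level of 10 CD4 T cell markers ranged from 7499 CPM in HP1a WT naive cells to 11503 CPM in HP1g WT naive cells, and all 10 were tested in every comparison, so the labelled cell type was present throughout. Cbx5 ran from 18.6 to 61.9 CPM in the 9 HP1a WT libraries and from 9.25 to 19.7 CPM in the 9 HP1a KO libraries. Cbx3 ran from 79.5 to 200.1 CPM in the 9 HP1g WT libraries and from 59.4 to 80.8 CPM in the 8 HP1g KO libraries in use. Each targeted gene was lower in the KO, with no overlap within a condition, although gene totals also count reads outside the deleted part. No replicate pair was as close as sampling noise.

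The genes lie in the clusters and single loci that the mouse annotation gives on GRCm39. Hbb-bs (chr7:103475730-103482989, minus strand) and Hbb-bt (chr7:103461727-103465047, minus strand) are the adult beta globin genes. Hba-a1 (chr11:32233186-32234504) and Hba-a2 (chr11:32246168-32247320) are the paired alpha globin genes on the plus strand. Alas2 lies at chrX:149330371-149353634 on the plus strand, Car1 at chr3:14831269-14873459 on the minus strand, Slc4a1 at chr11:102239650-102257029 on the minus strand and Klf1 at chr8:85628557-85631934 on the plus strand. Of all stretches of 150 bases in the annotated Hba-a1 transcripts, 70.9% also occurred in Hba-a2, and 40.1% of those of Hbb-bs occurred in Hbb-bt. The split of counts within each pair was therefore uncertain, and the DBA/2 and 129 strains can carry a beta globin haplotype other than that of C57BL/6.

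The 250 bases before the transcription start are shown for 5 members that differ in role, from RefSeq on GRCm38.p6. Of the 8 members with a row, 6 had an entry. Each line runs 5′ to 3′ on the strand of the gene. Capitals mark matches on either strand to GATAA, the core letters of GATA sites, to CCNCNCCC, a CACCC-type motif, or to CCAAT. Matches may overlap. The Hbb-bs window is chr7:103827929-103828178 (minus strand), the Hbb-bt window chr7:103813924-103814173 (minus strand), the Hba-a1 window chr11:32283422-32283671 (plus strand), the Alas2 window chrX:150547167-150547416 (plus strand) and the Klf1 window chr8:84901732-84901981 (plus strand).
Hbb-bs: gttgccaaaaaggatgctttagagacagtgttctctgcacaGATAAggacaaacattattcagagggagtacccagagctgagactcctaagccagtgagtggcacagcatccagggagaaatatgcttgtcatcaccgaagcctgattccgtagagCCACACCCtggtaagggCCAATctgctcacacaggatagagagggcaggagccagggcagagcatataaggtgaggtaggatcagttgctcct
Hbb-bt: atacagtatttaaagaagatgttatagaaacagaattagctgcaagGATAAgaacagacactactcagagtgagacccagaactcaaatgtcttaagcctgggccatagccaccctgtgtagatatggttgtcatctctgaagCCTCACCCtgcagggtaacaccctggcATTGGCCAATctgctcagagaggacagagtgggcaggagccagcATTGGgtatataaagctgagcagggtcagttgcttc
Hba-a1: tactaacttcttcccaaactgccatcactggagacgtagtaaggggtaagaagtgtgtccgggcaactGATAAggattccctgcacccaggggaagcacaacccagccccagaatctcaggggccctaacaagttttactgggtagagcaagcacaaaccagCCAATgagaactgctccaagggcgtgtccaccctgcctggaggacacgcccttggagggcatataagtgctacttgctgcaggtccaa
Alas2: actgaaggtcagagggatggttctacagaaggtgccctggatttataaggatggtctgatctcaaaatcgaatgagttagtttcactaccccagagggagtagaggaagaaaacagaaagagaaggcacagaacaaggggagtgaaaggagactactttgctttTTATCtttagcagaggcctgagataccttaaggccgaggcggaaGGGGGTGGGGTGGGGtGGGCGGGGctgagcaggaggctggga
Klf1: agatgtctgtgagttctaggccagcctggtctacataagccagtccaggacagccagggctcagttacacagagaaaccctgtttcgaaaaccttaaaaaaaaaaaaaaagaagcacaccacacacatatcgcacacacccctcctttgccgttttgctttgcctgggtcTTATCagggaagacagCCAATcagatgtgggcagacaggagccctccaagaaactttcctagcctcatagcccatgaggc

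GATAA occurred in 6 of 6 member windows, against 22.6% of 32851 windows of the same length over all listed promoters. CCAAT occurred in 5 of 6, against 33.8% of all windows, and was missing from Alas2 only. CCNCNCCC occurred in 3 of 6, namely Hbb-bs, Hbb-bt and Alas2, against 45.9% of all windows. All motifs together occurred in Hbb-bs and Hbb-bt, against 2.4% of all windows. In Hbb-bs the GATAA match began 209 bases before the start, the CCNCNCCC match 93 bases and the CCAAT match 76 bases before it, and Hbb-bt held them in the same order. The Hba-a1 and Hba-a2 windows, offset by 3 bases, were identical over 247 aligned bases, whereas Hbb-bs and Hbb-bt matched at 51.0% of 249 bases without gaps. These matches describe the letters of each window and not binding.

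Hbb-bs, an adult beta globin, ran from 0.693 to 2766 CPM over the 35 libraries. In naive cells of the HP1a line, Hbb-bs was 15.6, 43.2 and 18.5 CPM in WT replicates 1 to 3 and 17.1, 67.3 and 47.1 CPM in KO replicates 1 to 3. In HP1a Tconv, Hbb-bs was 0.693, 1.39 and 1.33 CPM in WT and 41.1, 10.7 and 324 CPM in KO. In HP1a Tconv with Treg, it was 1.06, 0.834 and 17.3 CPM in WT and 247, 47.6 and 289 CPM in KO. Naive WT and KO libraries overlapped, whereas every KO library lay above every WT library in both grafted conditions, and WT replicate 3 with Treg was high for its group.

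In the HP1g line, Hbb-bs in naive cells was 3.91, 16.7 and 20.9 CPM in WT and 28.5, 32.8 and 27.1 CPM in KO. In HP1g Tconv it was 2075, 30.9 and 87.8 CPM in WT and 1452, 68.6 and 133 CPM in KO. In HP1g Tconv with Treg it was 1494, 81.1 and 63.1 CPM in WT and 2766 and 42.1 CPM in the KO replicates 1 and 2. Replicate 1 stood far above the others in all 4 grafted HP1g groups, whatever the genotype or Treg, and grafted WT and KO overlapped. Hbb-bt, the other adult beta globin listed, ran from 0.066 CPM in HP1a WT Tconv replicate 2 to 711 CPM in HP1g KO Tconv with Treg replicate 1.

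**Figure D1:**
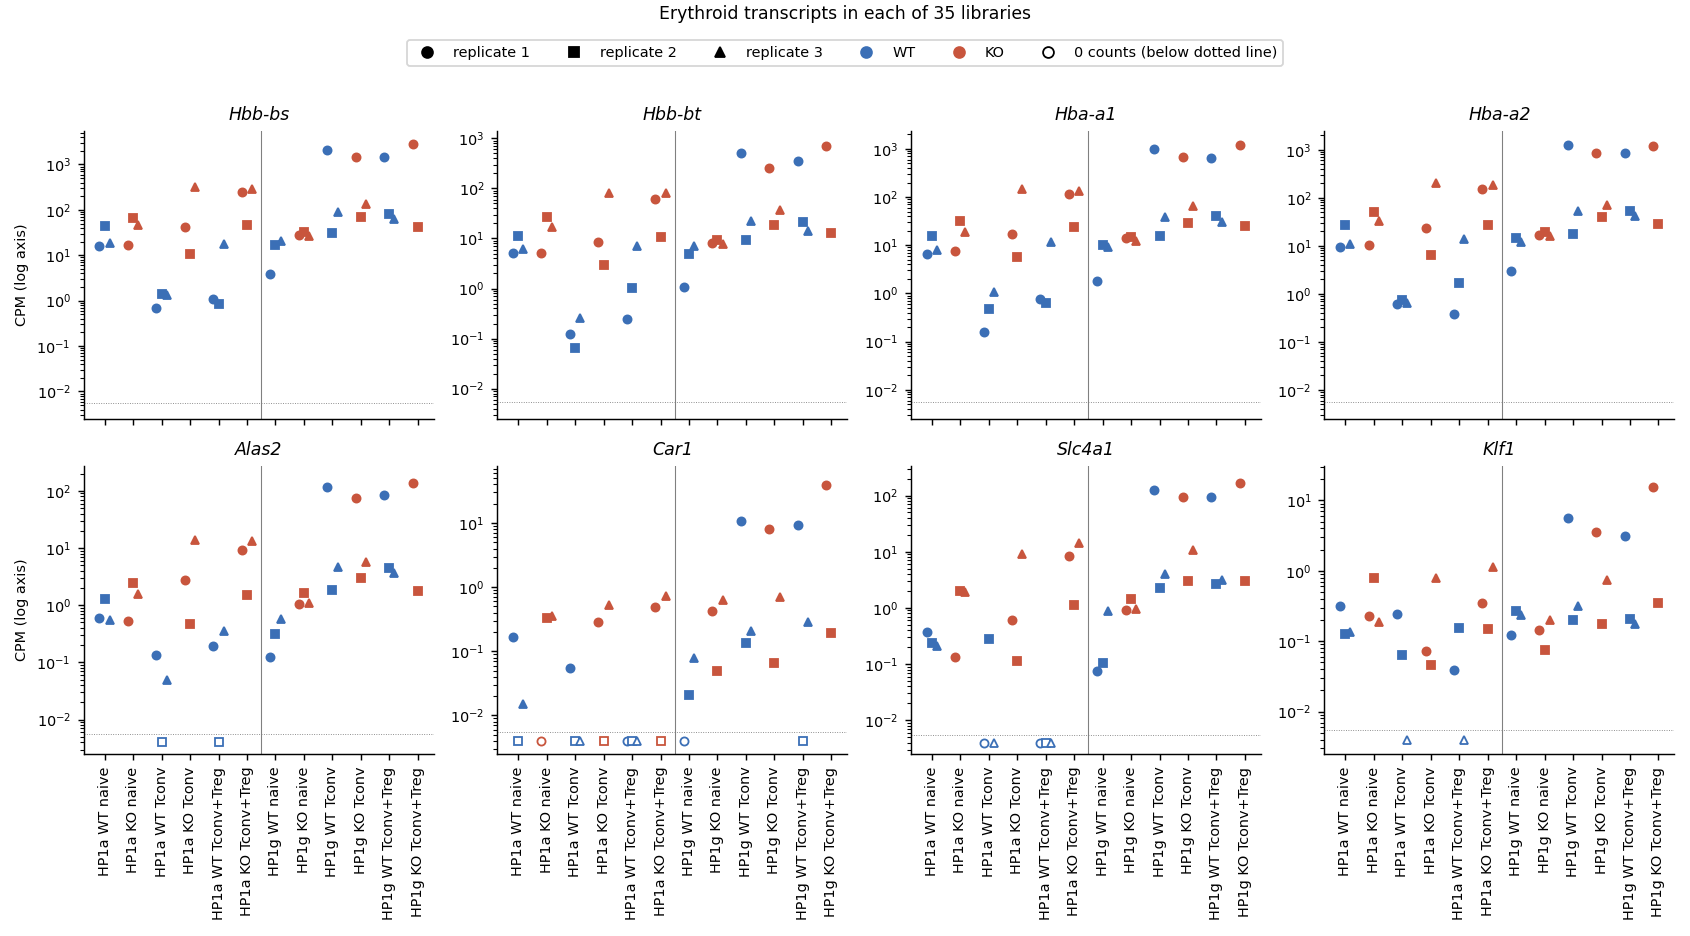
Level of each of 8 erythroid genes (CPM, log axis) in each of 35 libraries, by group on the horizontal axis, with WT in blue, KO in red, a marker shape for each replicate number and open symbols for 0 counts. The circles of the 4 grafted HP1g groups lie far above the other symbols of those groups in every panel, and Hbb-bs is 0.693 to 1.39 CPM in HP1a WT Tconv.

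The alpha globins had the same pattern. Hba-a2 was 9.47, 26.9 and 11 CPM in HP1a WT naive cells against 0.629, 0.742 and 0.654 CPM in HP1a WT Tconv, and 23.9, 6.39 and 199 CPM in HP1a KO Tconv. Hba-a2 reached 1249, 852, 867 and 1223 CPM in replicate 1 of the HP1g WT Tconv, KO Tconv, WT Tconv with Treg and KO Tconv with Treg, and was 17.6 to 70.1 CPM in the other 7 grafted HP1g libraries. Hba-a1 ran from 0.160 CPM in HP1a WT Tconv replicate 1 to 1188 CPM in HP1g KO Tconv with Treg replicate 1. Divided by the length of all annotated exons, mean levels in HP1a WT naive cells were 17.1 CPM per kb for Hba-a2 and 10.2 for Hba-a1. They were 15.8 CPM per kb for Hbb-bs and 4.45 for Hbb-bt. The chains were not compared further on this scale, because the split within each pair was uncertain.

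Alas2, the erythroid heme synthesis enzyme, was below Hbb-bs in every library and at 0 in 2 of them. In HP1a naive cells, Alas2 was 0.597, 1.31 and 0.548 CPM in WT and 0.522, 2.42 and 1.59 CPM in KO. In HP1a Tconv it was 0.136, 0 and 0.0484 CPM in WT and 2.72, 0.476 and 13.9 CPM in KO, and with Treg it was 0.190, 0 and 0.358 CPM in WT and 9.07, 1.52 and 13.1 CPM in KO. As for the globins, the grafted HP1a KO libraries all lay above the WT, some of which were at or near the limit of detection. In HP1g naive cells Alas2 was 0.124, 0.311 and 0.576 CPM in WT and 1.06, 1.65 and 1.11 CPM in KO. It was 116, 1.82 and 4.75 CPM in HP1g WT Tconv and 74.9, 3.01 and 5.63 CPM in KO Tconv. With Treg, Alas2 in the HP1g line was 83.1, 4.52 and 3.59 CPM in WT and 136 and 1.74 CPM in KO.

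Slc4a1, the band 3 anion exchanger, overlapped between groups of the HP1a line that the globins and Alas2 separated. It was 0.370, 0.238 and 0.208 CPM in HP1a WT naive cells and 0.136, 2.0 and 1.90 CPM in HP1a KO naive cells. In HP1a WT Tconv it was 0, 0.274 and 0 CPM and in KO Tconv 0.620, 0.115 and 8.96 CPM, which overlapped. In HP1a Tconv with Treg it was 0 in all 3 WT libraries and 8.26, 1.14 and 14.2 CPM in KO. In the HP1g line Slc4a1 was 0.0743, 0.105 and 0.865 CPM in WT naive cells, 0.911, 1.45 and 0.948 CPM in KO naive cells, and 2.28 to 169 CPM over the 11 grafted libraries in use.

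Car1, which marks early as well as late erythroid cells, was sparse. It was at 0 in 11 of the 35 libraries, among them all 3 HP1a WT Tconv with Treg, and exceeded 1 CPM only in replicate 1 of the 4 grafted HP1g groups, at 10.8, 7.97, 9.19 and 39.0 CPM. Klf1, the lineage transcription factor, exceeded 1 CPM in the same 4 libraries, at 5.61, 3.54, 3.07 and 15.4 CPM, and in HP1a KO Tconv with Treg replicate 3 at 1.12 CPM. Elsewhere Klf1 was between 0 and 0.795 CPM.

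Summed over the 8 members, the level ran from 2.04 to 6248 CPM, with a median of 94.2 CPM over 35 libraries, and made up at most 0.624% of the counts of a library. In the order of group medians, HP1a WT Tconv stood lowest (3.01 CPM), followed by HP1a WT Tconv with Treg (4.31), HP1a WT naive (44.5), HP1g WT naive (46.6), HP1g KO naive (70.3), HP1a KO Tconv (94.2), HP1a KO naive (120), HP1g WT Tconv with Treg (203), HP1g WT Tconv (210), HP1g KO Tconv (322) and HP1a KO Tconv with Treg (592). HP1g KO Tconv with Treg had 2 libraries, at 6248 and 114 CPM. Of the 11 pairs of neighbours in this order, 10 overlapped, and only HP1g WT naive and HP1g KO naive did not. Replicate 1 of the 4 grafted HP1g groups summed to 3401 to 6248 CPM, against 77.7 to 322 CPM in the other 7 grafted HP1g libraries. In bulk libraries, the number of cells that hold these transcripts and the amount per cell cannot be told apart. Which cells held them was not tested.

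The proportions among the globins were steadier than their levels. Proportions of the members were compared within each of the 29 libraries that held at least 1000 globin counts. The ratio of alpha to beta globin counts ran from 0.694 to 1.14 with a median of 0.833, although the globin level itself spanned a wide range among them. Hba-a1 made up 36.2 to 49.3% of the alpha counts and Hbb-bt 14.7 to 28.9% of the beta counts. For each 1000 globin counts, Alas2 had a median of 13.8 counts in 11 naive libraries, of 18.5 in 7 grafted HP1a libraries and of 23.3 in 11 grafted HP1g libraries. Slc4a1 had medians of 11.4, 10.4 and 28.0 counts on the same scale, and Klf1 of 3.22, 1.06 and 1.18 counts. The grafted HP1g libraries thus held more Alas2 and Slc4a1 and less Klf1 for their globin than naive libraries at the median. The Alas2 share of the grafted HP1g libraries (16.0 to 24.8) overlapped that of the naive libraries (6.78 to 21.5). So did the Slc4a1 share (13.9 to 35.8 against 2.28 to 18.9) and the Klf1 share (0.915 to 3.21 against 0.979 to 8.58). These shares are described and not tested.

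Across 35 libraries, each member's log2(CPM + 0.5) correlated with the mean of the members at 0.877 for Car1 to 0.987 for Hba-a1 (Pearson). The values are a description, since libraries of a group share condition and the points include the 4 high libraries. That mean includes the gene itself, and the split of counts within each globin pair was uncertain. Part of each correlation is therefore built in, and the values do not test whether the members vary together. Among the genes outside the member list whose pattern was most like the member mean were Tmcc2 (0.940), Rhd (0.931), Apol11b (0.929), Trim10 (0.928), Rhag (0.924), Tspan33 (0.919), Aqp1 (0.918) and Hemgn (0.914), out of 12796 genes searched. Of these, all but Apol11b were on the wider list of erythroid genes. Rhd and Rhag encode proteins of the Rh complex, and Aqp1 the red cell water channel.

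**Figure D2:**
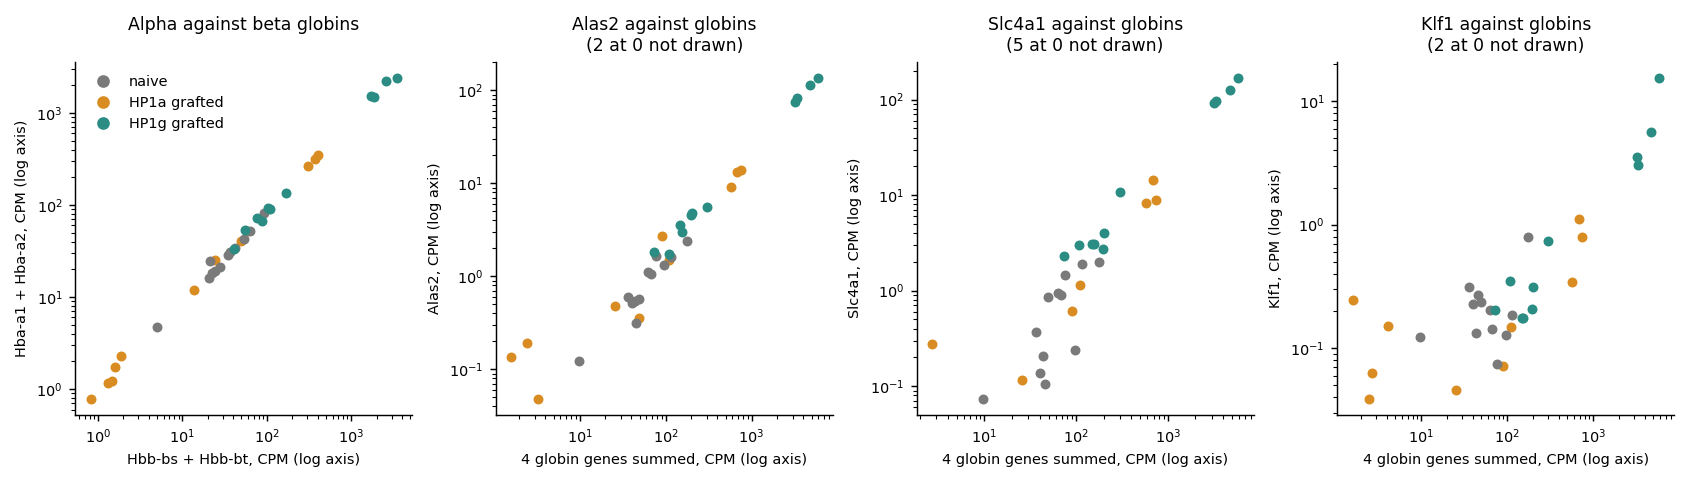
Alpha against beta globin CPM, and Alas2, Slc4a1 and Klf1 CPM against the summed globin CPM, in each of 35 libraries (both axes log, one point a library, naive in grey, grafted HP1a in orange and grafted HP1g in teal). In the 29 libraries with at least 1000 globin counts, the alpha to beta ratio runs from 0.694 to 1.14 with a median of 0.833. Below that count it reaches 1.22, in HP1a WT Tconv with Treg replicate 2. Klf1 is scattered at low globin levels and is highest in the 4 grafted HP1g replicate 1 libraries.

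The comparison of Tconv with naive cells of the same genotype set libraries made after transfer against libraries made without it. Naive cells were bead-depleted from donor spleen and Tconv flow-sorted from an irradiated host, so transfer, host and isolation cannot be told apart. The erythroid transcripts went in opposite directions in the WT of the HP1a and HP1g lines. A gene was called where its adjusted p was below 0.05 and its log2 fold change beyond 1 in either direction (edgeR quasi-likelihood test, Benjamini-Hochberg adjustment over all genes tested). Counts of members or listed genes at an unadjusted p below 0.05 have no share of all genes at that threshold beside them. A share of genes called follows the stricter call rule and is no background for such counts. In the HP1a WT, all 4 adult globins and Alas2 fell, 5 of the 6 members tested, where 10.2% of all genes tested were called lower. Hbb-bs fell by 4.49 on the log2 scale (SE 0.488, adjusted p = 0.000231), Hbb-bt fell by 5.58 (adjusted p = 8.28e-05), Hba-a1 fell by 4.10 (adjusted p = 0.00117), Hba-a2 fell by 4.54 (adjusted p = 0.000122) and Alas2 fell by 3.7 (adjusted p = 0.00786). Every Tconv library lay below every naive library for these 5 genes. Slc4a1 overlapped, with a log2 difference of -1.41 (SE 1.06, adjusted p = 0.309), and Car1 and Klf1 had too few counts to be tested. Leaving out any 1 library kept at least 5 members called.

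In the HP1a KO, none of the 8 members was called by edgeR, none had an unadjusted p below 0.05, and DESeq2 called 0, where 12.4% of genes were called higher in Tconv. Hbb-bs was 17.1 to 67.3 CPM in naive KO cells and 10.7 to 324 CPM in KO Tconv, and its log2 difference was 1.54 (SE 1.19, adjusted p = 0.354). The differences of all 8 members ran from -0.30 for Klf1 to 1.95 for Alas2, and naive and Tconv libraries overlapped for each. Their median of 1.31 rested on KO Tconv replicate 3, and without that library it was -0.88. The difference between KO and WT in this change was added after the values were seen. For Hbb-bs it was 6.01 (SE 1.59, edgeR adjusted p = 0.719), and 5 of 8 members had an unadjusted p below 0.05. None was called by edgeR, where 0.00587% of genes were called, whereas DESeq2 called 3 members, among 69 of 32578 genes with a count.

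In the HP1g WT, the globins, Alas2 and Slc4a1 rose, 6 of the 7 members tested, where 15% of genes were called higher. Hbb-bs was higher by 5.72 on the log2 scale (SE 1.64, edgeR adjusted p = 0.0324), Alas2 by 6.91 (SE 1.74, adjusted p = 0.0197) and Slc4a1 by 7.03 (SE 1.87, adjusted p = 0.0245). Every Tconv library exceeded every naive library for these 6 genes. Klf1, which overlapped, differed by 3.25 (SE 1.25, adjusted p = 0.0837). The size of the rise rested on Tconv replicate 1. Without the replicate 1 libraries of the grafted HP1g groups, Alas2 was higher by 3.29 (adjusted p = 0.012) and Slc4a1 by 3.20 (adjusted p = 0.0437), whereas Hbb-bs differed by 2.11 (adjusted p = 0.0666) and Klf1 by 0.29, leaving 2 members called. No member was called when any 1 of the 3 naive libraries was left out, or by DESeq2, which set the adjusted p of all 8 members to missing.

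In the HP1g KO, the 4 globins and Slc4a1 rose, 5 of the 7 members tested, where 15.7% of genes were called higher. Hbb-bs was higher by 4.25 (SE 1.29, edgeR adjusted p = 0.0453) and Slc4a1 by 5.05 (SE 1.42, adjusted p = 0.0356), and Alas2 differed by 4.49 (SE 1.41, adjusted p = 0.0511). All 3 were higher in every Tconv library than in any naive library. DESeq2 called 7 members, among 4198 of 29486 genes with a count. Without replicate 1, the differences were smaller and tighter, with 6 members called. Hbb-bs was then higher by 1.79 (SE 0.289, adjusted p = 0.00513), Alas2 by 1.79 (SE 0.341, adjusted p = 0.000585) and Slc4a1 by 2.68 (SE 0.511, adjusted p = 0.00298). No member was called when any 1 naive KO library or KO Tconv replicate 3 was left out. The change after transfer did not differ between KO and WT beyond the error, from -3.74 for Car1 to 0.17 for Klf1, with no member called by edgeR, none at an unadjusted p below 0.05, and 0.0235% of genes called. The median of -1.56 became 2.01 without WT Tconv replicate 1.

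The difference between the lines in the WT change, also added after the values were seen, was 10.2 on the log2 scale for Hbb-bs (SE 2.03, edgeR adjusted p = 0.202) and 10.6 for Alas2 (SE 2.32, adjusted p = 0.202). All 7 members tested had an unadjusted p below 0.05 and 0 were called by edgeR, where 0.0117% of genes were called. DESeq2 called 5 members, among 249 of 32290 genes with a count. The lines were also separate transfer experiments, so line and experiment cannot be told apart.

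**Figure D3:**
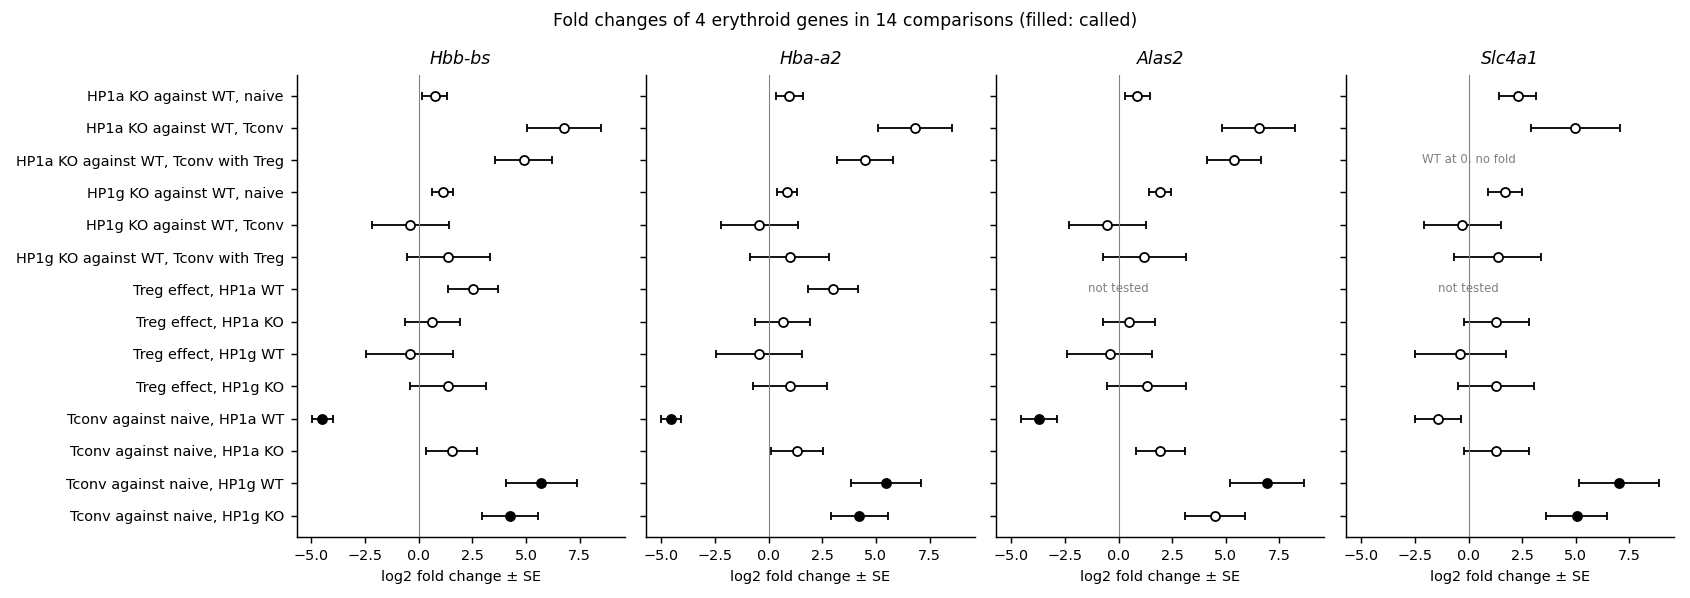
Log2 fold change (edgeR, bars show 1 SE) of Hbb-bs, Hba-a2, Alas2 and Slc4a1 in 14 comparisons, with filled points for called genes. Points of Tconv against naive lie below 0 in the HP1a WT (Hbb-bs -4.49) and above 0 in the HP1g WT (Hbb-bs 5.72), and the points of HP1a KO against WT in both grafted conditions lie far above 0 with wide bars.

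The comparison of KO with WT within each condition asked what the loss of HP1a or HP1g changed. In grafted HP1a cells the erythroid transcripts were much higher in the KO libraries, but the spread among libraries was wide and no member was called by edgeR. In Tconv, 6 members were tested, and 5 of them (the globins and Alas2) were higher in every KO library than in any WT library, which held for 7.12% of all genes. The log2 difference was 6.78 for Hbb-bs (SE 1.71, adjusted p = 0.549), 7.67 for Hbb-bt (SE 1.92, adjusted p = 0.549), 6.53 for Alas2 (SE 1.70, adjusted p = 0.549) and 4.98 for Slc4a1 (SE 2.08, adjusted p = 0.587). The median over the tested members was 6.71, against 0.00 over all genes tested. Of the 6, 5 had an unadjusted p below 0.05. By the call rule, edgeR called 0.103% of genes. DESeq2, the tool that the study used, called 5 members, among 207 of 28630 genes with a count. KO replicate 3 was the highest library, and without it the Hbb-bs difference was 4.51 (adjusted p = 0.428).

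In HP1a Tconv with Treg, all 6 members tested were higher in every KO library than in any WT library, which held for 11.7% of all genes. Hbb-bs differed by 4.90 on the log2 scale (SE 1.33, edgeR adjusted p = 0.206), Hba-a2 by 4.48 (SE 1.30, adjusted p = 0.233) and Alas2 by 5.38 (SE 1.24, adjusted p = 0.143). Slc4a1 had no count in any WT library and a mean of 7.88 CPM in KO (1.14 to 14.2 CPM), with an edgeR adjusted p of 0.0872. The KO mean was at least 117-fold above a floor of 3 counts per WT library. That bound does not cover the spread among the KO libraries. Car1, at 0 in the same WT libraries and too sparse to be tested, was 0.495, 0 and 0.730 CPM in KO, so the groups overlapped. All 6 had an unadjusted p below 0.05, and none was called by edgeR, where 0.123% of genes were called. DESeq2, the tool that the study used, called 6 members, among 713 of 28664 genes with a count. WT replicate 3 was the highest WT library, and without it Hbb-bs was higher by 7.68 (adjusted p = 0.0341) and Hba-a1 by 7.0 (adjusted p = 0.0348).

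In naive cells, KO libraries tended to higher values without a call. In the HP1a line, the 7 members tested differed by 0.74 for Hbb-bs to 2.29 for Slc4a1 (edgeR adjusted p = 1 for each), and WT and KO overlapped for all. Same-numbered libraries deviated together here. Hbb-bs, Hba-a1 and Hba-a2 were higher in the KO at each replicate number, whereas Hbb-bt, Alas2, Slc4a1 and Klf1 were lower in the KO at replicate 1. With a replicate block the median over the members was 0.88, with 0 members and 12 of 15549 genes called. Without the block, only Slc4a1 had an unadjusted p below 0.05 (0.0324), 0% of genes were called by edgeR, and DESeq2 called 0 members. In the HP1g line, all 6 members tested were higher in every KO library than in any WT library, against 10.1% of all genes, with log2 differences from 0.84 for Hba-a2 to 1.92 for Alas2 (SE 0.510). Their adjusted p was 0.63 for each by edgeR, where 0.00669% of genes were called, Alas2 alone had an unadjusted p below 0.05 (0.00567), and DESeq2 called 0.

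In grafted HP1g cells, KO and WT overlapped for every member. In Tconv the 8 members differed by -0.76 for Hbb-bt to -0.28 for Slc4a1, with standard errors of 1.51 to 1.97, no unadjusted p below 0.05, 0 called by edgeR or DESeq2, and 0.0437% of genes called. In Tconv with Treg they differed by 0.98 for Hba-a2 to 2.79 for Klf1, again with no unadjusted p below 0.05, 0 called by either tool and 0% of genes called. The direction turned with the replicate 1 libraries. Without them, the median over the members went from -0.43 to 0.76 in Tconv and from 1.37 to -0.48 in Tconv with Treg, with 0 members called. With a replicate block, the median was 0.30 in Tconv and 0.14 in Tconv with Treg, again with 0 members called. Leaving out 1 library at a time moved the median between -2.89 (without KO replicate 1) and 3.22 (without WT replicate 1) in Tconv, and between -3.45 (without KO replicate 1) and 4.32 (without WT replicate 1) in Tconv with Treg.

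The comparison of Tconv with Treg against Tconv asked whether the regulatory cells changed the transcripts. No member was called by edgeR in any genotype. In the HP1a WT, 4 globins were tested and differed by 2.53 for Hbb-bs to 4.18 for Hbb-bt (edgeR adjusted p = 0.25 and 0.103), with overlap between the groups. Of these globins, 2 had an unadjusted p below 0.05. By the call rule, edgeR called 5.96% of genes. DESeq2 called 2, Hbb-bt and Hba-a2, among 1754 of 28353 genes with a count. The difference between these groups rested on WT replicate 3 with Treg, at 17.3 CPM for Hbb-bs. Without that library the Hbb-bs difference was -0.26. In the HP1a KO the 8 members differed by 0.48 to 1.29, where 0.44% of genes were called. In the HP1g WT they differed by -0.82 to -0.23, where 0.0126% of genes were called, and in the HP1g KO by 0.97 to 2.75, where 0% were. No member had an unadjusted p below 0.05 in these 3 comparisons by edgeR, or was called by DESeq2. The directions in the HP1g line turned on 1 library. The median of the HP1g WT went from -0.42 to 3.20 without WT Tconv replicate 1 and to -3.33 without WT Tconv with Treg replicate 1. That of the HP1g KO went from 1.34 to -3.49 without KO Tconv with Treg replicate 1. With a replicate block, which sets same-numbered libraries against each other, the medians were 0.016 in the HP1g WT and 0.40 in the HP1g KO. Same-numbered libraries deviated together in the HP1g WT comparison. The difference of the Treg effect between KO and WT ran from -3.47 for Hbb-bt to 6.49 for Slc4a1 in the HP1a line, where 0.139% of genes were called, and from 1.41 to 3.23 in the HP1g line, where 0% were, with no member called by edgeR or DESeq2 and none at an unadjusted p below 0.05. These directions turned as well. The HP1a median went from -1.48 to 0.56 without KO Tconv replicate 3 and to 0.64 without WT Tconv with Treg replicate 3. The HP1g median went from 1.78 to -3.12 without KO Tconv with Treg replicate 1 and to -1.89 without WT Tconv replicate 1. With a replicate block, the median was 0.029 in the HP1a line and 0.025 in the HP1g line.

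The wider erythroid list held 45 further genes of heme synthesis, the red cell membrane and cytosol, transcription factors, receptors and other globins. In HP1a WT Tconv against naive cells, 23 were tested, 3 rose and 2 fell, where 12.9% of all genes were called higher and 10.2% lower, so both counts were near the background. The genes that rose there, Alad, Cpox and Abcb10, act in heme synthesis or at the mitochondrial inner membrane and are expressed in many cells, and rose by 1.52, 1.47 and 2.63 while the globins fell. Gata1 fell by 2.40 and Car2, a carbonic anhydrase, fell by 4.59. In the HP1a KO, 4 of 30 rose and 0 fell, near the 12.4% of all genes called higher, with Abcb10 higher by 2.60, Lmo2 by 1.86, Alad by 1.49 and Cpox by 1.05. In the HP1g WT, 8 of 28 rose and 1 fell, where 15% of all genes were called higher and 8.55% lower, with Tmcc2 higher by 6.30, Hemgn by 3.79, Abcb10 by 3.45 and Nfe2, a globin locus factor, by 3.24, whereas Gata1 fell by 1.51. In the HP1g KO, 10 of 34 rose and 0 fell, where 15.7% of all genes were called higher, among them Aqp1 by 5.12, Ermap by 4.96, Hemgn by 3.19 and Epor, the erythropoietin receptor, by 3.14. In Tconv with Treg against Tconv, Car2 was higher by 3.66 and Nfe2 by 1.78 in the HP1a WT (22 tested), Abcb10 was lower in the HP1a KO (-2.02, 36 tested), and no gene of the list was called for the HP1g mice. No gene of the list was called for KO against WT in any condition, with 0 to 10 at an unadjusted p below 0.05. Gata1 fell in the WT of both lines, with 5.55 to 9.84 CPM in naive cells and 0.898 to 2.19 CPM in Tconv of the HP1a line, where the globins fell, and 7.86 to 9.33 CPM and 1.31 to 5.31 CPM in the HP1g line, where they rose. Tfrc, the transferrin receptor that dividing cells also use, was 22 to 92 CPM over all groups.

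Adult globins made up nearly all globin counts. Hbb-y and Hbb-bh2, embryonic or minor beta-like genes, were at 0 in all 35 libraries, and Hbb-bh1 was above 0 in a single HP1a KO naive library, at 0.0559 CPM. Hbq1b, an alpha-like theta globin, reached 2.76 CPM in HP1g KO Tconv with Treg replicate 1. Depth limits the statement on the embryonic genes to levels under the floor of 0.0446 to 0.0816 CPM per library.

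Markers of other blood cells moved with the members in part of the libraries. The summed level of 9 neutrophil genes was 0.0697 to 2.74 CPM in naive libraries, 0.107 to 0.272 CPM in HP1a WT Tconv and 1.78 to 62.6 CPM in HP1a KO Tconv. With Treg it was 1.59 to 40.1 CPM in the HP1a WT and 246 to 444 CPM in the HP1a KO, where Ltf, a granule protein, was called (5.73 on the log2 scale, edgeR adjusted p = 0.0328). In HP1a WT Tconv, which had the lowest median sum of the members, Ltf, Elane, Ly6g and Retnlg were at 0 in all 3 libraries. The 9 macrophage genes summed to 11.4 to 17.6 CPM in HP1a WT Tconv, 27.5 to 494 CPM in KO Tconv, 43.2 to 70.8 CPM in WT Tconv with Treg and 84.8 to 572 CPM in KO Tconv with Treg. Grafted HP1a KO libraries were thus higher than WT in the neutrophil, macrophage and member sums, but not in every list. Erythroid heme synthesis genes summed to 416 to 440 CPM in HP1a KO Tconv against 448 to 462 CPM in WT Tconv. With Treg, stem and progenitor genes summed to 14.5 to 42.2 CPM in the HP1a KO against 52.1 to 90.4 CPM in the WT. B cell genes overlapped between HP1a KO and WT in both grafted conditions.

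The high HP1g libraries were not high in every marker list. In replicate 1 of the 4 grafted HP1g groups, 10 erythroid membrane genes that are not members summed to 112 to 286 CPM, against 2.82 to 14.4 CPM in the other 7 grafted HP1g libraries. Neutrophil genes summed to 140 to 562 CPM against 4.01 to 114 CPM, also without overlap. Macrophage genes overlapped, at 38.1 to 98 CPM against 48.8 to 151 CPM, as did the CD4 T cell markers, at 7948 to 10183 CPM against 7656 to 8894 CPM. In naive libraries the macrophage genes summed to 3.20 to 10.9 CPM, while the members summed to 10.1 to 181 CPM. The part of other cell types in the differences above was not tested.

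**Figure D4:**
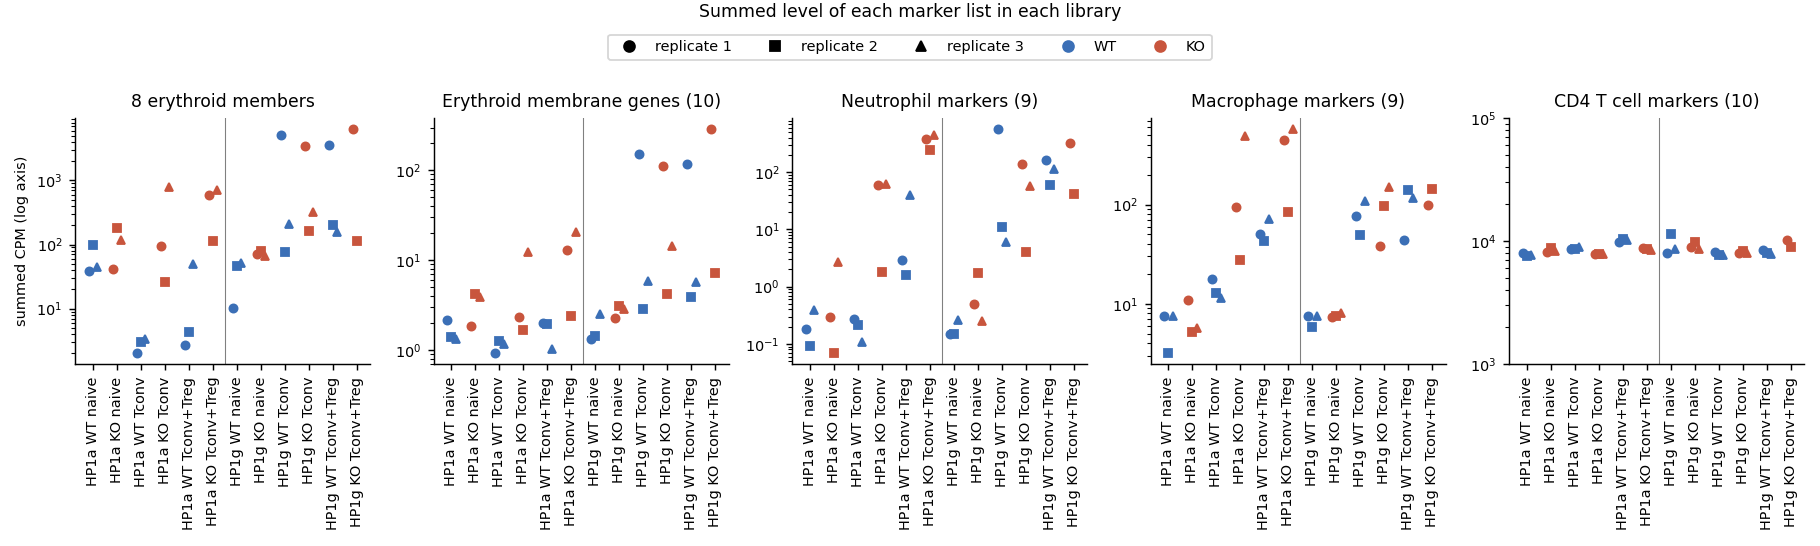
Summed CPM (log axis) of the 8 members and of erythroid membrane (10 genes), neutrophil (9), macrophage (9) and CD4 T cell (10) lists in each of 35 libraries, by group. The CD4 T cell sums stay between 7499 and 11503 CPM, whereas the member, membrane and neutrophil sums of replicate 1 stand above the other replicates in the grafted HP1g groups.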

How the data were processed

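The authors sequenced RNA of CD4 T cells with a low-input kit that does not mark strand, aligned the paired reads with STAR and estimated counts per gene with Salmon on GRCm39. The deposited values were these estimated counts, of which 82.9% were whole, and they were rounded for the tests. Totals per library ranged from 37029519 to 63042245. Each comparison was fitted on the libraries of its groups in edgeR 4.0.16 (R 4.3.3) with TMM factors, its default filter on low counts, a robust quasi-likelihood fit and Benjamini-Hochberg adjustment over all genes tested. Logs of CPM used a pseudocount of 0.5. DESeq2 1.42.0, RLE factors, no filter, no fold threshold, summed globin copies, a fit over the line, a replicate block and leaving out each library were alternatives. The genes named were the members, up to 5 called genes of the wider erythroid list per comparison by size, its defining genes Gata1, Epor, Tfrc and Hemgn, markers of other cells at 0, and the 10 genes most like the member mean. Some of these genes are not reported here. Ltf and the other globins were added after their values were seen. The members and lists were chosen with earlier results of these data known. Scripts were tested on simulated counts. Same-numbered libraries deviated together only in HP1a KO against WT naive cells and in the Treg effect of the HP1g WT. This was judged among comparisons with 3 pairs or more, by a correlation above 0.1 for each pair. Blocking changed no member call there. Over all genes, the block called 12 rather than 0 in the former and 0 rather than 2 in the latter.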

Additional observations from a re-analysis of the deposited data

Results flagged for a closer look

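In the WT, the log2 change from naive cells to Tconv differed between the HP1g and HP1a lines by 10.22 for Hbb-bs, 10.94 for Hbb-bt, 9.74 for Hba-a1, 10.02 for Hba-a2 and 10.64 for Alas2. Every HP1a WT Tconv library lay below, and every HP1g WT Tconv library above, the naive libraries of its line for these 5 genes. The test of the difference itself gave an adjusted p of 0.202 for each (edgeR quasi-likelihood test, Benjamini-Hochberg adjustment). Without the replicate 1 libraries of the grafted HP1g groups the differences were 6.60 for Hbb-bs (adjusted p = 0.0577), 7.43 for Hbb-bt (0.055), 6.07 for Hba-a1 (0.0701), 6.36 for Hba-a2 (0.055) and 6.99 for Alas2 (0.0658).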

How the results depend on the processing

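Counts of members called stayed within 1.5 times the reported count under every alternative run in 11 of 19 comparisons. In HP1a WT Tconv against naive cells, summed globin copies left 3 of 4 because fewer features were tested. DESeq2 called 5 members in HP1a KO against WT Tconv, 6 with Treg, 2 in the Treg effect of the HP1a WT, 3 in the difference of the HP1a change after transfer, 5 in the difference between lines, and 0 in HP1g WT and 7 in HP1g KO Tconv against naive cells. With no filter on low counts, 1 member was called in HP1a KO against WT with Treg and 0 in Tconv against naive cells of the HP1g WT and KO. One fit over all libraries of the line called 5 in HP1a KO against WT with Treg and 0 in HP1g KO Tconv against naive cells, and RLE factors called 2 in the latter. Apart from the numbers treated as pairs, the replicate block called 1 (Hbb-bt, adjusted p = 0.0336) in HP1a KO against WT Tconv and 0 in Tconv against naive cells of the HP1g WT and KO, where the numbers did not pair the libraries, and it moved no other count. Leaving out 1 library gave 0 to 2 in HP1a KO against WT with Treg, 5 to 6 in Tconv against naive cells of the HP1a WT, and 0 to 7 of the HP1g WT and of the HP1g KO. Without the replicate 1 libraries of the grafted HP1g groups, chosen after seeing the data, 2 were called in the HP1g WT. Single genes were recomputed in 9 of the comparisons, namely those with a member called or at an unadjusted p below 0.05 other than HP1a KO against WT in naive cells. There, 583 values under an alternative kept their direction and side of the threshold, 82 lost and 27 gained the call, and 4 changed sign. Directions turned for Hbb-bs in the Treg effect of the HP1a WT without WT replicate 3 with Treg (-0.26, and up to 3.03 without another library), and in the difference of the HP1a change after transfer for Car1 without WT naive replicate 1 (-0.59, range up to 4.89), and for Slc4a1 (-0.43, up to 8.03) and Klf1 (-1.81, up to 2.06) without KO Tconv replicate 3. The cause of these changes was not tested. With 3 libraries a group, and Car1 and Klf1 near the floor, the depth and the spread limit what could be detected.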

Other observations

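The library set aside by the study, HP1g KO Tconv with Treg replicate 3, held Hbb-bs at 2.07 CPM and the 8 members at 23.2 CPM, below the other libraries of its group, but Slc4a1 at 17.3 CPM. Its Slc4a1 count was 3243 for each 1000 globin counts, on 74 globin counts in all, against at most 35.8 in the 29 libraries compared. With that library included, 0 members were called in the 3 comparisons that use its group.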
